A study of Mus musculus with 41 samples.

Results

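Transcripts of 9 genes that keratinocytes switch on above the basal layer of the epidermis were followed over the day in mice on a high fat diet and on its control diet. The genes were Krt1, Krt10, Dsg1a, Calm4, Sbsn, Krtdap, Ivl, Lce1b and Tgm3, which are 9 of the 17097 genes tested. They were taken by symbol from the platform annotation of the arrays. The genes were chosen with earlier results of these data known, so counts set beside all genes are descriptions. Ivl has 2 probe sets and Sbsn has 3, and each of these genes is represented by its brightest probe set on average. The other 7 genes have 1 probe set each.

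The RNA came from the epidermis of wild type female C57B6/J mice aged 15 weeks, from cells that the labels call epidermal stem cells. Feeding was ad libitum and had begun at 8 weeks of age, so that each mouse had spent 7 weeks on its diet. On the high fat diet 3, 4, 2, 4, 4 and 4 arrays were available from ZT0 to ZT20 in steps of 4 h, where ZT is zeitgeber time in hours after lights on. On the control diet there were 4, 3, 2, 3, 4 and 4 arrays at the same times. All groups share strain, sex, age and genotype, and differ by label in diet and time point. What the diets contain, and how the cells were isolated, the sources used here do not say. The design plans 4 mice for each diet and time point, and the labels number the arrays without saying that each is a separate mouse. The p-values therefore measure the spread between arrays, which may be technical. Mice killed on a given day all belonged to the same time point, so that time point and collection day cannot be told apart.

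The epidermis renews itself from keratinocytes of the basal layer, which make the keratins Krt5 and Krt14 and hold on to the basement membrane through integrins. Cells that commit to differentiation let go, move upward and make the keratins Krt1 and Krt10 and desmosomes rich in desmoglein 1. Higher still they lay down involucrin, late cornified envelope proteins and other precursors, which transglutaminases join into the tough envelope of the cornified cells. In skin the basal cells follow a daily clock, and the balance between division and differentiation is one of the outputs studied in it.

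All values below are log2 RMA values, so that a difference of 1 is a 2-fold difference in signal. Signal was read per probe set, and levels are not compared between genes. Basal markers were bright, with means of 12.67 for Krt5, 12.62 for Krt14, 11.94 for the basal transcription factor Trp63, 10.95 for the integrin Itga6 and 10.31 for the integrin Itgb1. These lay at the 93.7th to 99.9th percentile of gene means. Cd34, a marker of hair follicle bulge stem cells in the mouse, had a mean of 5.30, at the 16.9th percentile. It was the lowest of the bulge markers measured. Nfatc1 lay at the 90.4th percentile, Sox9 at 86.1, Fgf18 at 44.6, Tnc at 43.5, Lhx2 at 28.5 and Lgr5 at 25.9. Of the suprabasal genes, Krt1, Krt10 and Sbsn lay at or above the 98.8th percentile, Dsg1a, Calm4 and Krtdap at the 92.6th to 92.9th, Tgm3 at 80.3, Ivl at 69.7 and Lce1b at 31, which are ranks of probe signals and not of transcript levels. The signal over background is unknown here. Dsg1a and Lce1b have close paralogs in the mouse, and whether their probes also read those was not tested. In bulk RNA, fewer cells of a type and less RNA per cell cannot be told apart.

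The first question was whether the 9 genes varied over the day within each diet. Under high fat feeding 6 of 9 differed between time points, namely Dsg1a, Calm4, Sbsn, Krtdap, Ivl and Tgm3, where 41.5% of all genes tested did. All 9 differed on the control diet, where 43.9% of all genes did (limma F test over 6 time points, Benjamini-Hochberg adjusted over all genes, threshold 0.05). Without the ZT8 arrays the same 6 genes passed on the high fat diet. Without high fat ZT8 replicate 2 alone there were 4, and Ivl (adjusted p = 0.0716) and Calm4 (adjusted p = 0.0655) did not pass. For the control diet 7 passed without ZT8, and Krt1 (adjusted p = 0.258) and Tgm3 (adjusted p = 0.0844) did not. When each time point was set against the mean of the other 5, 12 of 54 pairs of gene and time passed on the high fat diet (11.8% over all genes) and 19 of 54 on the control diet (13.3%). High fat arrays gave 1 call at ZT0 (5.87% of all genes), 0 at ZT4 (9.07%, limma, with 1 at an unadjusted p under 0.05), 5 at ZT8 (7.55%), 1 at ZT12 (27.8%), 2 at ZT16 (9.71%) and 3 at ZT20 (10.8%). Control arrays gave 0 at ZT0 (12.2%, with 2 at an unadjusted p under 0.05), 1 at ZT4 (11.2%), 8 at ZT8 (30.7%), 3 at ZT12 (5.31%), 4 at ZT16 (6.32%) and 3 at ZT20 (13.8%).

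**Figure D1:**
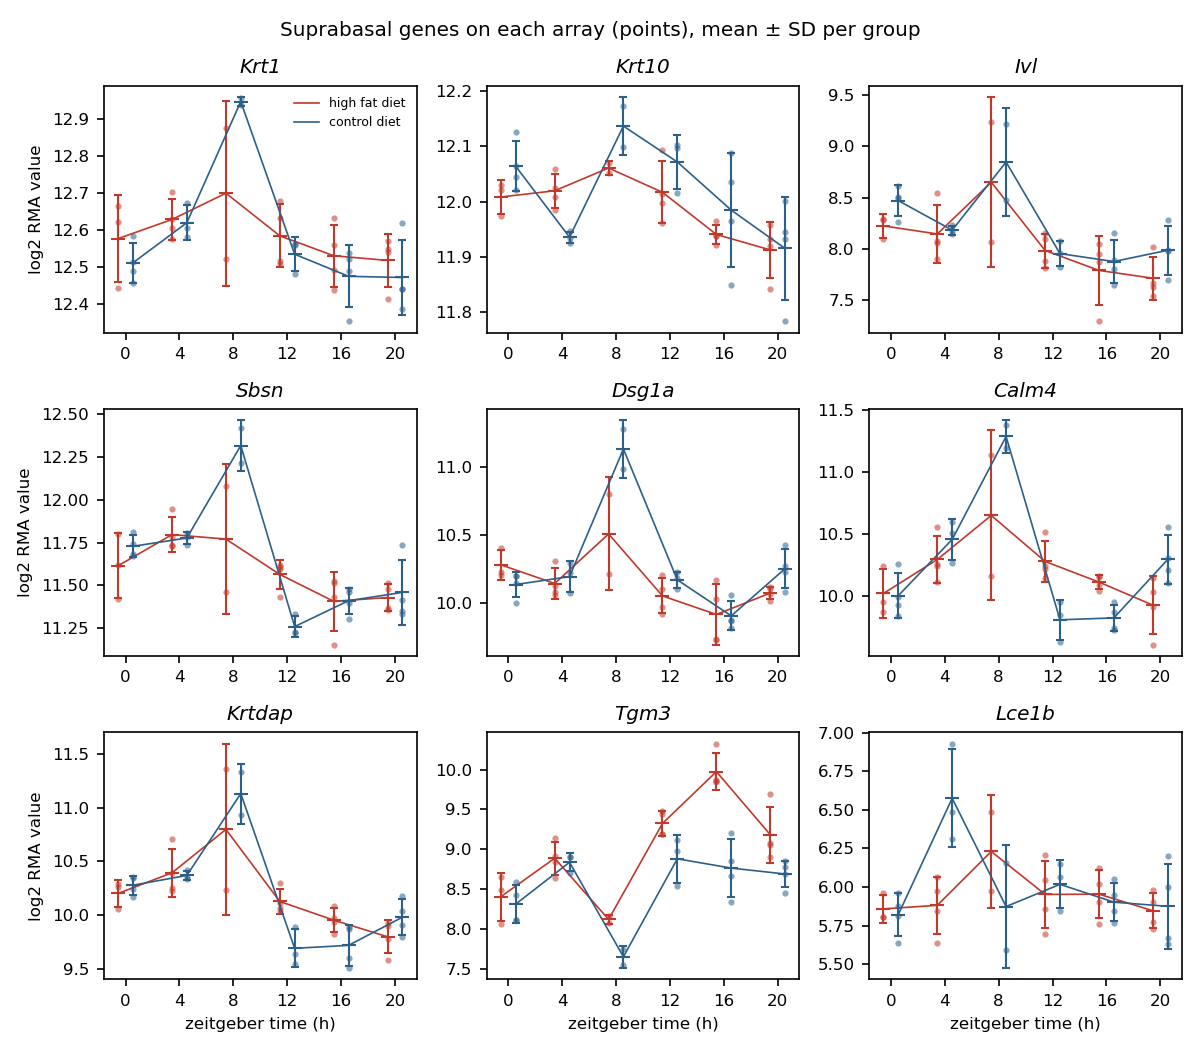
Log2 RMA value (vertical axis) of the 9 suprabasal genes on each array against zeitgeber time in hours, with the high fat diet in red and the control diet in blue, offset for clarity. Points are arrays and lines join group means ± SD (n = 2 to 4). On the control diet 7 genes are highest at ZT8 and Tgm3 is lowest there, and the 2 high fat arrays of ZT8 lie far apart in several panels.

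ZT8 was the time at which most of the genes stood apart, in both diets. Under high fat feeding Dsg1a, Calm4, Krtdap and Ivl were higher at ZT8 than at the other 5 times and Tgm3 was lower, where 3.46% of all genes were higher and 4.09% lower. Under control feeding Krt1, Krt10, Dsg1a, Calm4, Sbsn, Krtdap and Ivl were higher and Tgm3 was lower, where 12.2% of all genes were higher and 18.4% lower. The median difference of the 9 genes was 0.33 on the high fat diet and 0.75 on the control diet, beside -0.01 and -0.03 over all genes tested. Both ZT8 groups hold 2 arrays. Without high fat ZT8 replicate 2 the high fat differences of Dsg1a, Calm4, Krtdap and Ivl fell to between 0.04 and 0.14, as given below. The next paragraphs give the values by the role of the gene.

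Krt1 and Krt10 encode the keratin pair that builds the filaments of suprabasal cells. High fat arrays of Krt1 read 12.52 and 12.88 at ZT8 and between 12.41 and 12.70 on the arrays of other times. Control arrays read 12.94 and 12.96 at ZT8, above all other control arrays, which lay between 12.35 and 12.67. The difference from the other 5 times was 0.13 ± 0.07 (SE) on the high fat diet, with an adjusted p of 0.248, and 0.42 ± 0.07 on the control diet, with an adjusted p of 1.19e-05 by limma. Krt10 moved less than Krt1, and its arrays overlapped those of other times in both diets. It read 12.05 and 12.07 at ZT8 on the high fat diet, and 12.10 and 12.17 on the control diet, where the difference of 0.14 ± 0.05 passed (adjusted p = 0.0184). At ZT20 on the control diet Krt10 was lower by 0.12 ± 0.03 than at the other times and Krt1 by 0.15 ± 0.05 (adjusted p = 0.0157 for Krt10 and 0.0498 for Krt1). The group means of Krt10 spanned no more than 11.91 to 12.06 over the day on the high fat diet and 11.92 to 12.14 on the control diet.

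Dsg1a encodes a form of desmoglein 1, the cadherin that ties suprabasal cells together in desmosomes. Its high fat arrays of ZT8 read 10.22 and 10.80, and its control arrays 10.99 and 11.28. High fat arrays of other times lay between 9.73 and 10.41, so that a single ZT8 array stood above them. Control arrays of other times lay between 9.82 and 10.43, below both ZT8 arrays. The ZT8 difference was 0.42 ± 0.11 on the high fat diet (adjusted p = 0.0149) and 1.00 ± 0.11 on the control diet (2-fold, adjusted p = 2.54e-08). Dsg1a was lowest at ZT16, where it was lower than at the other times by 0.30 ± 0.08 on the high fat diet and by 0.47 ± 0.08 on the control diet (adjusted p = 0.0183 and 0.00061).

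Calm4 encodes a calmodulin-like calcium binding protein of differentiating mouse keratinocytes, and calcium is the classic signal that drives these cells to differentiate. Its high fat arrays read 10.16 and 11.14 at ZT8, and 9.61 to 10.56 at other times. Its control arrays read 11.38 and 11.20 at ZT8, and 9.63 to 10.59 at other times. The control arrays of ZT8 were clear of the rest, and on the high fat diet only the higher one was. The difference was 0.52 ± 0.15 on the high fat diet (1.44-fold, adjusted p = 0.0288) and 1.21 ± 0.15 on the control diet (2.31-fold, adjusted p = 3.25e-07). Control arrays of ZT12 read 9.95, 9.85 and 9.63 and those of ZT16 read 9.73 to 9.95, and both times were lower than the others (adjusted p = 0.00678 and 0.00338). The high fat values at ZT12 were 10.24, 10.51, 10.14 and 10.22, near the mean of the other times. At ZT20 high fat Calm4 was lower than at the other times, with a difference of -0.345 ± 0.114 (limma, adjusted p = 0.0457).

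Sbsn and Krtdap encode suprabasin and keratinocyte differentiation associated protein, which are secreted by suprabasal keratinocytes. Sbsn read 11.46 and 12.08 at ZT8 on the high fat diet, against 11.15 to 11.94 at other times, and the difference of 0.21 ± 0.10 did not pass (adjusted p = 0.244). Control arrays read 12.42 and 12.21 at ZT8, against 11.22 to 11.81 at other times, a difference of 0.79 ± 0.10 (1.73-fold, adjusted p = 8.06e-07). The other probe sets of Sbsn gave control differences of 0.82 and 1.31 at ZT8, which also passed. Control Sbsn was lower at ZT12, ZT16 and ZT20, with differences of -0.478, -0.297 and -0.239 (limma, adjusted p = 0.00101, 0.0188 and 0.0394). At ZT12 its other probe sets gave -0.529 and -0.524 (adjusted p = 0.00121 and 0.132), and at ZT16 and ZT20 they did not pass. Krtdap read 10.23 and 11.36 at ZT8 on the high fat diet and 11.33 and 10.93 on the control diet. Its arrays of other times lay between 9.59 and 10.71 on the high fat diet and between 9.51 and 10.42 on the control diet. The higher high fat array and both control arrays of ZT8 thus stood above the rest of their diet. The difference was 0.70 ± 0.15 on the high fat diet (1.63-fold, adjusted p = 0.0044) and 1.12 ± 0.15 on the control diet (2.18-fold, adjusted p = 1.48e-06).

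Krtdap also varied outside ZT8. Under high fat feeding its means ran from high to low as ZT8 (10.80), ZT4 (10.39), ZT0 (10.20), ZT12 (10.13), ZT16 (9.95) and ZT20 (9.80), with each neighbour in that order overlapping the next. Under control feeding the order was ZT8 (11.13), ZT4 (10.37), ZT0 (10.28), ZT20 (9.98), ZT16 (9.72) and ZT12 (9.69), and ZT8 was the one level that did not overlap its neighbour. Krtdap was lowest at ZT20 on the high fat diet, by 0.50 ± 0.12 (adjusted p = 0.0052), and low at ZT12 and ZT16 on the control diet, by 0.60 ± 0.13 and 0.57 ± 0.12 (adjusted p = 0.00456 and 0.00282).

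Ivl encodes involucrin, an early scaffold of the cornified envelope. On the high fat diet it read 8.06 and 9.24 at ZT8, and on the control diet 9.22 and 8.47, so that each diet had 1 high array. The difference from the other times was 0.68 ± 0.20 on the high fat diet (adjusted p = 0.0296) and 0.75 ± 0.20 on the control diet (adjusted p = 0.00405). At ZT20 on the high fat diet the difference was -0.445 ± 0.148 (limma, adjusted p = 0.0486), and -0.033 in the other probe set (adjusted p = 0.957). The other probe set of Ivl did not share the control difference at ZT8, with 0.03 ± 0.33 (adjusted p = 0.964), and gave 0.63 ± 0.32 on the high fat diet (adjusted p = 0.268). That probe set was instead higher at ZT0 on the control diet, by 0.80 ± 0.25 (adjusted p = 0.0296), where the main one gave 0.30 ± 0.15 (adjusted p = 0.199). Without control ZT8 replicate 1 the control difference of the main probe set was 0.38 (adjusted p = 0.307).

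Lce1b encodes a late cornified envelope protein, made in the uppermost living layer. Its 21 high fat arrays lay between 5.64 and 6.49 and the time points did not differ (adjusted p = 0.425). The 3 control arrays of ZT4 read 6.93, 6.31 and 6.48, above all other control arrays, which lay between 5.59 and 6.20. Control Lce1b was higher at ZT4 by 0.68 ± 0.13 (1.6-fold, adjusted p = 0.00066). At ZT8 it read 5.97 and 6.49 on the high fat diet, and 5.59 and 6.15 on the control diet, with no difference that passed.

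Tgm3 encodes transglutaminase 3, an enzyme that cross-links envelope proteins and is also known from the inner root sheath of hair follicles. It was the gene that was lowest at ZT8. High fat arrays read 8.16 and 8.08 at ZT8, and 8.49, 8.65 and 8.07 at ZT0. Control arrays read 7.75 and 7.55 at ZT8, below all other control arrays, the lowest of which read 8.11. The ZT8 difference was -1.04 ± 0.18 on the high fat diet (adjusted p = 0.000519) and -1.05 ± 0.18 on the control diet (adjusted p = 3.91e-05), which is 0.488 and 0.484 times the signal of the other times. Under high fat feeding Tgm3 was highest at ZT16, at 9.87, 10.33, 9.85 and 9.86, above every other array of that diet, and 1.19 ± 0.13 over the other times (2.28-fold, adjusted p = 1.89e-06). On that diet the difference was 0.411 ± 0.134 at ZT12 and -0.694 ± 0.151 at ZT0, and both passed (limma, adjusted p = 0.0216 and 0.00477). On the control diet the levels of ZT12, ZT4, ZT16 and ZT20, in that order, overlapped with their neighbours, and ZT16 at 8.85, 8.34, 8.66 and 9.20 did not pass (adjusted p = 0.213).

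**Figure D2:**
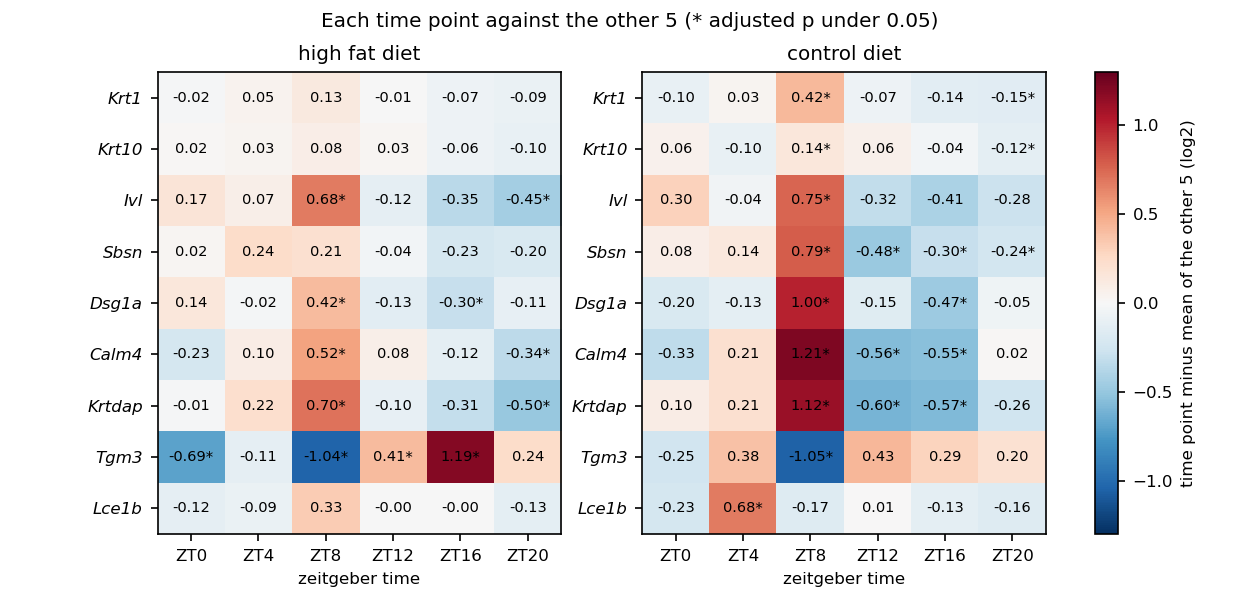
Difference of each time point from the mean of the other 5 on the log2 scale (colour and printed value) for the 9 genes, with the high fat diet on the left and the control diet on the right. An asterisk marks an adjusted p under 0.05 by limma. At ZT8 the control column holds values from 0.14 to 1.21 in 7 genes and -1.05 in Tgm3, and Tgm3 on the high fat diet reaches 1.19 at ZT16.

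The 2 high fat arrays of ZT8 differed from each other. Replicate 2 was higher than replicate 1 in 8 of the 9 genes, by 1.17 in Ivl, 1.13 in Krtdap, 0.97 in Calm4, 0.62 in Sbsn, 0.59 in Dsg1a, 0.52 in Lce1b and 0.35 in Krt1, and by 0.02 in Krt10. Tgm3 alone was slightly lower, by 0.08. With each gene centred on its own average over the 41 arrays, the mean of the 9 genes was -0.08 in replicate 1 and 0.51 in replicate 2, and 0.46 and 0.38 in the control arrays of ZT8. Without high fat ZT8 replicate 2 no gene was called higher at ZT8 on that diet, and the differences were 0.04 in Calm4, 0.09 in Ivl, 0.12 in Dsg1a and 0.14 in Krtdap. Without replicate 1 they were between 0.71 and 1.26 in these 4 genes, and Krt1 and Sbsn passed as well (adjusted p = 0.0111 and 0.00423). Tgm3 was low on both arrays, and without replicate 2 its difference was -0.997 (adjusted p = 0.0946).

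Markers of other epidermal cells moved at the same arrays. The mean of 11 basal genes, centred in the same way, was -0.02 and -0.84 on high fat ZT8 replicates 1 and 2, and -0.75 and -0.64 on the control arrays of ZT8. On all other arrays it lay between -0.12 and 0.23. The integrin genes Itga3, Itga6 and Itgb1 and the laminin gene Lamb3, which anchor basal cells, were lower at ZT8 by 1.26, 0.67, 0.75 and 1.03 on the high fat diet and by 1.57, 1.01, 0.92 and 1.47 on the control diet. In all, 8 of 11 basal genes were lower on the high fat diet, where 4.09% of all genes were, and all 11 on the control diet, where 18.4% were. The mean of 5 genes of the upper hair follicle was 0.08 and 0.78 on the high fat arrays of ZT8 and 1.04 and 0.75 on the control arrays, with the defensin gene Defb6 higher by 1.12 and 2.43 and the keratin gene Krt79 by 0.86 and 1.86. The mean of 9 fibroblast genes stayed between -0.06 and 0.06 on these 4 arrays. Of the genes of other cells, 2 of 7 of the hair follicle bulge, 0 of 9 of the hair matrix, 0 of 4 of the sebaceous gland, 2 of 9 of fibroblasts and 1 of 10 of leukocytes passed on the high fat diet, and 4, 5, 1, 2 and 6 on the control diet. These counts stand beside 7.55% of all genes called on the high fat diet and 30.7% on the control diet. On the control diet those for fibroblasts and the sebaceous gland lie near or below that share. The counts for bulge, hair matrix and leukocytes lie above it there. On the control arrays of ZT8 the list means were 0.60 and 0.35 for bulge, 0.17 and 0.34 for hair matrix, and -0.14 and -0.42 for leukocytes. For melanocytes 1 of 7 passed on the high fat diet and 0 on the control diet, and for endothelial cells 0 and 2 of 5, for muscle 0 and 2 of 4 and for erythrocytes 0 and 0 of 2 (limma, with 0 and 1 erythrocyte gene at an unadjusted p under 0.05). The control counts for endothelial cells and muscle also lie above the share of all genes. Their list means on the control arrays of ZT8 were 0.07 and -0.08 for endothelial cells, and -0.11 and -0.12 for muscle. The part of these shifts in the values of the 9 suprabasal genes was not tested.

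**Figure D3:**
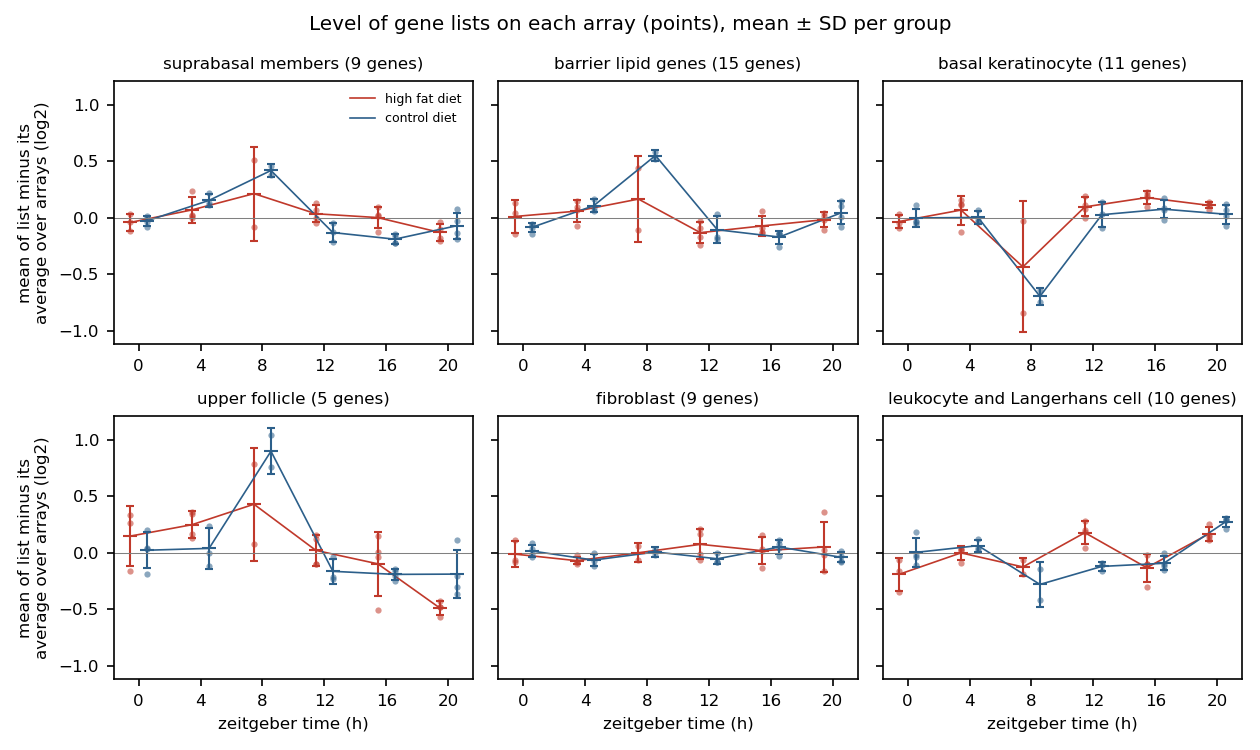
Mean of each gene list, with every gene centred on its average over the 41 arrays (vertical axis, log2), on each array against zeitgeber time in hours, with the high fat diet in red and the control diet in blue. Points are arrays and lines join group means ± SD. At ZT8 the 9 suprabasal genes, the barrier lipid genes and the upper follicle genes are high and the basal genes are low on both control arrays and on 1 of 2 high fat arrays.

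The wider differentiation program was described with lists that do not hold the 9 genes. Their counts at ZT8 stand beside 7.55% of all genes called on the high fat diet (3.46% higher) and 30.7% on the control diet (12.2% higher, 18.4% lower). Among 5 other keratins of suprabasal layers, 1 was higher at ZT8 on the high fat diet and 4 on the control diet, where Krt78 gave 0.78 ± 0.16 and Krt23 gave 0.70 ± 0.13, with 0 lower in either diet. Among 10 genes of corneodesmosomes and junctions, 0 passed on the high fat diet (3 at an unadjusted p under 0.05) and 5 were higher on the control diet, led by the desmocollin gene Dsc1 (1.20 ± 0.19) and the plakophilin gene Pkp1 (0.36 ± 0.06). Among 15 barrier lipid genes, 2 passed for high fat and 9 for control, all of them above the other times. The lipid transporter gene Abca12 gave 2.21 ± 0.32 on the control diet, the fatty acid elongase gene Elovl4 gave 1.26 ± 0.19, and the lipoxygenase gene Alox12e gave 1.03 ± 0.21 on the high fat diet and 1.86 ± 0.22 on the control diet. The medians of these lists on the control diet were 0.38, 0.33 and 0.38, beside -0.03 over all genes.

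Envelope precursors, proteases and calcium binding genes held calls in both directions. The high fat values rest on arrays that lay apart, since the centred list means on replicates 1 and 2 were -0.12 and 0.62 for the proteases, -0.04 and 0.34 for the envelope precursors, -0.15 and 0.43 for the junction genes and -0.11 and 0.44 for the barrier lipid genes. Of 29 cornified envelope precursors, 5 were higher and 0 lower at ZT8 on the high fat diet, and 7 were higher and 2 lower on the control diet, where 9 of 29 is near the share of all genes. The keratinocyte transglutaminase gene Tgm1, unlike Tgm3, was higher in both diets, by 0.92 ± 0.18 and 0.68 ± 0.18, and Sprr1a, a small proline-rich envelope protein gene, by 1.84 ± 0.35 on the control diet. Of 17 proteases and inhibitors of cornification, 5 were higher and 2 lower on the high fat diet, and 8 and 3 on the control diet. The kallikrein gene Klk7, whose protease sheds cornified cells, was higher by 1.56 ± 0.40 and 2.03 ± 0.40, and the cathepsin gene Ctsl was lower by 1.91 ± 0.20 on the control diet. Of 7 calcium binding genes, Calml3, a calmodulin-like gene, was higher by 1.02 ± 0.24 on the high fat diet and 2.75 ± 0.24 on the control diet, and Calm2 was lower on the control diet by 0.23 ± 0.05. Of 34 regulators of differentiation, 3 were higher and 2 lower on the high fat diet, and 14 were higher and 5 lower on the control diet, among them the receptor gene Notch3 (0.52 ± 0.14 and 1.15 ± 0.14) and, on the control diet, the transcription factor genes Grhl1 (1.10 ± 0.13) and Ovol1 (1.02 ± 0.19). Of 3 stress keratins 0 passed in either diet (1 in each at an unadjusted p under 0.05).

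Promoters are shown for the genes of the table that were called higher at ZT8 on the control diet, namely Krt10, Calm4, Sbsn, Krtdap and Ivl, and for Tgm3, which was called lower. The windows hold the 250 bases before the gene start in RefSeq (GRCm38.p6), and 7 of the 9 genes were in the promoter table, all but Krt1 and Dsg1a. Both strands were searched for the letters of 5 motifs, of which capitals mark AP-1 (TGANTCA) and the TATA box (TATAAA), whose matches do not overlap. Krt10 is at chr11:99389365-99389614 and Ivl at chr3:92573736-92573985 on the minus strand, and Calm4 is at chr13:3837507-3837756, Sbsn at chr7:30751221-30751470, Krtdap at chr7:30787655-30787904 and Tgm3 at chr2:130012090-130012339, each on the plus strand.
Krt10: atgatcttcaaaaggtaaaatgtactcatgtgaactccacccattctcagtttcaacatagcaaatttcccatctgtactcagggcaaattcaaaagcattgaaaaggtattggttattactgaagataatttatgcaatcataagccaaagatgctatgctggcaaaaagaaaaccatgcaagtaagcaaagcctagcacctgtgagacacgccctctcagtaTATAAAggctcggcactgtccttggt
Calm4: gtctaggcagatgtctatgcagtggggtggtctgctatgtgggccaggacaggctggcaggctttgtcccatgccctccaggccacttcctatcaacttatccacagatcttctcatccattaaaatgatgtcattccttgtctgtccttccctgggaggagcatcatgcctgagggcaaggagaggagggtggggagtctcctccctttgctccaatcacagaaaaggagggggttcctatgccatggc
Ivl: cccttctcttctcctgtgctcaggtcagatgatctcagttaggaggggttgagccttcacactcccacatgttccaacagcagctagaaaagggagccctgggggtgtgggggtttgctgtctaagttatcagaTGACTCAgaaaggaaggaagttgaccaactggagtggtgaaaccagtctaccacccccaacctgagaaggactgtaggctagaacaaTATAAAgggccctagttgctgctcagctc
Sbsn: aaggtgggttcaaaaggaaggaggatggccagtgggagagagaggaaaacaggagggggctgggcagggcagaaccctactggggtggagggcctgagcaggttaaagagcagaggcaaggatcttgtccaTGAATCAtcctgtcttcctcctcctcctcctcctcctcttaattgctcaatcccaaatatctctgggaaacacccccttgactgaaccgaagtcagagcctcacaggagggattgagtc
Krtdap: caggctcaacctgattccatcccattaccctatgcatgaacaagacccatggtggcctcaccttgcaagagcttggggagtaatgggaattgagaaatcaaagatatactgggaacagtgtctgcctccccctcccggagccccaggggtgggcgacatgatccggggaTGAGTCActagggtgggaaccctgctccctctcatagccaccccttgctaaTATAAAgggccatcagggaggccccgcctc
Tgm3: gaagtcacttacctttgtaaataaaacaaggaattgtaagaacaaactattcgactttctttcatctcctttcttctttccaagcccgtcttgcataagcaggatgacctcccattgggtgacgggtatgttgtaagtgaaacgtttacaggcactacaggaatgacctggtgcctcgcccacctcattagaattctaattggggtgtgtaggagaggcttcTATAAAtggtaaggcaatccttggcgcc
Counted from the start, the AP-1 letters begin at -116 in Ivl, -119 in Sbsn and -81 in Krtdap, and are in none of the other 4 windows, Krt10 and Calm4 included. Over all 32851 promoters of the table, 6.75% hold them. The TATA box is in Krt10 (-26), Ivl (-29), Krtdap (-30) and Tgm3 (-28), and in 12.4% of all promoters. The CCAAT box (its letters are its name) is in Krt10, Calm4 and Tgm3, and in 33.8% of all. No window of these 7 genes holds the E-box CACGTG (6.02% of all). None holds the grainyhead-like motif AACCNGTT (1.79% of all). A match in the letters is a description and not evidence of binding.

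Over the 41 arrays the genes ranged from close to opposite in their course. Pearson's r of a gene with the mean of the other 8 was 0.87 for Krtdap, 0.84 for Krt1, 0.82 for Calm4 and for Sbsn, 0.62 for Ivl and 0.60 for Dsg1a, and 0.31 for Krt10 and for Lce1b. For Tgm3 it was -0.58. Without the ZT8 arrays (37 arrays) it was 0.74 for Krtdap, 0.68 for Sbsn, 0.67 for Krt1, 0.65 for Calm4, 0.40 for Lce1b, 0.32 for Ivl, 0.20 for Dsg1a, 0.05 for Krt10 and -0.34 for Tgm3. The genes with the highest r to the mean of the 9 were Fabp5 (0.924), Them5 (0.871), Dgat2 (0.859), Clic3 (0.852), Gsdma (0.842), Elovl4 (0.828), Slc12a2 (0.823) and Sdr16c5 (0.822). The lowest r were those of Efemp1 (-0.877), Socs7 (-0.863), Nhsl1 (-0.847) and Ablim3 (-0.834). Without ZT8 the r of Fabp5 was 0.863 and that of Efemp1 -0.750. Arrays of the same group share diet and time point, so these correlations are descriptions.

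The second question was whether diet changed the genes. Averaged over the 6 times, Tgm3 was the 1 of 9 genes that changed, where 7.59% of all genes did and 5.52% were higher. Its mean over time points was 8.98 on the high fat diet and 8.52 on the control diet, a rise of 0.46 ± 0.08 (SE, 1.38-fold, adjusted p = 0.000802 by limma). The difference was positive at 6 of 6 time points. It passed under each of 50 other settings and left-out arrays, with values of 0.43 to 0.49 and adjusted p up to 0.0113. For the other 8 genes the average lay between -0.14 (Dsg1a, ± 0.05, adjusted p = 0.066) and 0.02 (Krtdap, ± 0.07, adjusted p = 0.906).

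Of the 6 time points, Tgm3 differed most at ZT16. There it read 9.87, 10.33, 9.85 and 9.86 on the high fat diet and 8.85, 8.34, 8.66 and 9.20 on the control diet, so that all high fat arrays lay above all control arrays, as they did for 3.99% of all genes. The rise was 1.21 ± 0.17 (2.32-fold, adjusted p = 0.000156), and Tgm3 was the 1 of 9 genes called at ZT16, where 1.24% of all genes were and 0.579% were higher. It passed under each of 51 other settings and left-out arrays, with adjusted p up to 0.0469. At ZT12 the high fat arrays read 9.19, 9.48, 9.45 and 9.19, and the control arrays 9.12, 8.98 and 8.54, and at ZT20 the high fat arrays read 9.06, 9.07, 9.70 and 8.90, and the control arrays 8.46, 8.85, 8.68 and 8.77. The diets did not overlap at either time, as for 20.6% (ZT12) and 3.97% (ZT20) of all genes with high fat arrays higher, and the differences of 0.44 ± 0.18 and 0.49 ± 0.17 did not pass (adjusted p = 0.0888 and 0.152). At ZT0 the difference was 0.09 ± 0.18 and at ZT4 it was 0.05 ± 0.18, with overlapping arrays. Calm4 also did not overlap at ZT16, and its difference of 0.29 ± 0.14 did not pass (adjusted p = 0.32). At ZT16 the mean of 4 sebaceous gland genes was 0.13 to 0.29 on high fat arrays and -0.09 to 0.07 on control arrays. That of 9 hair matrix genes overlapped, at 0.02 to 0.10 and -0.03 to 0.05. The part of these lists in the Tgm3 result was not tested.

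Tgm3 on high fat arrays of ZT8 read 8.16 and 8.08, above the control values of 7.75 and 7.55, as for 28.0% of all genes, and the difference of 0.47 ± 0.24 did not pass (adjusted p = 0.236). The genes that passed at ZT8 were lower on the high fat diet. Sbsn, Dsg1a and Calm4 passed, 3 of 9 genes, where 8.34% of all genes passed and 2.92% were lower. Sbsn read 11.46 and 12.08 on the high fat diet against 12.42 and 12.21 on the control diet (-0.55 ± 0.14, adjusted p = 0.013). Dsg1a read 10.22 and 10.80 against 10.99 and 11.28 (-0.63 ± 0.15, adjusted p = 0.00626), and Calm4 read 10.16 and 11.14 against 11.38 and 11.20 (-0.64 ± 0.20, adjusted p = 0.0464). The call of Calm4 lay close to the threshold and passed in 25 of 50 other settings and left-out arrays, and it was lost with array weights (adjusted p = 0.17), without ZT12 (adjusted p = 0.059) and with 20 of the 41 arrays left out in turn. The other probe sets of Sbsn gave -0.53 (adjusted p = 0.034) and -0.88 (adjusted p = 0.0932). In these 3 genes both high fat arrays lay below both control arrays, as in 18.5% of all genes. Krt1 and Krt10 also lay below, by 0.25 ± 0.09 and 0.08 ± 0.06, and did not pass (adjusted p = 0.0812 and 0.494), so that 5 of 9 genes did not overlap in this direction. Without high fat ZT8 replicate 1 no gene passed, and the differences were -0.24 in Sbsn, -0.33 in Dsg1a and -0.15 in Calm4. Without high fat ZT8 replicate 2 there were 5, the same 3 with Krt1 (-0.42, adjusted p = 0.00484) and Krtdap (-0.90, adjusted p = 0.0022). Dsg1a alone passed without control ZT8 replicate 1, and Sbsn alone without control ZT8 replicate 2.

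**Figure D4:**
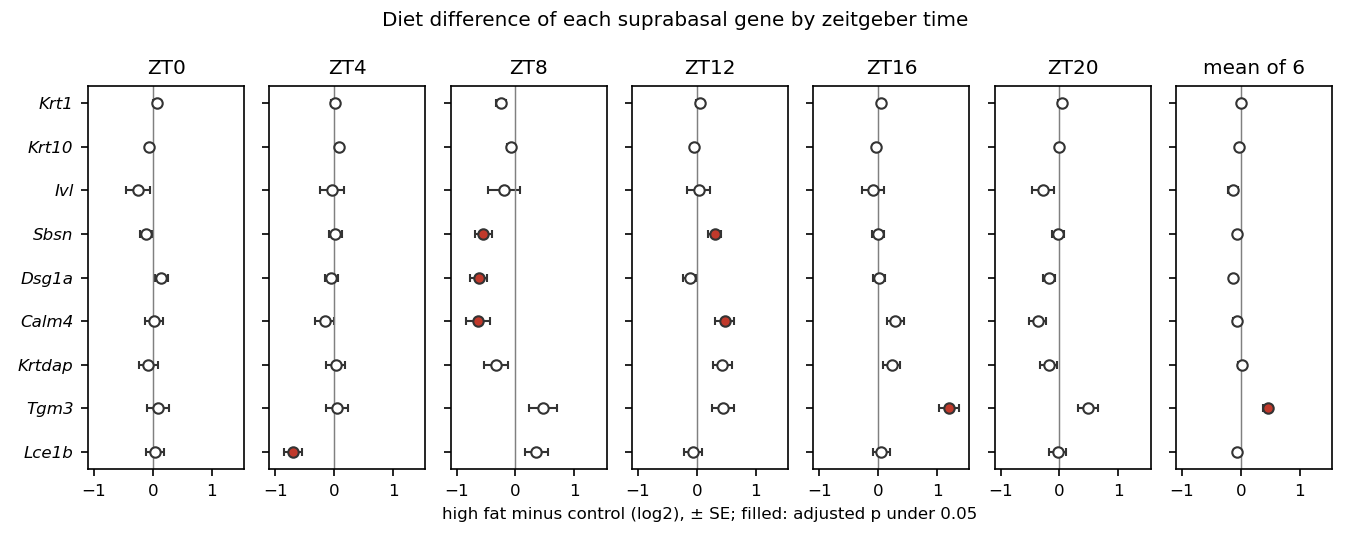
High fat minus control difference on the log2 scale (horizontal axis, ± SE) of the 9 genes at each zeitgeber time and as the mean of the 6 times. Filled points passed at an adjusted p under 0.05 by limma. Sbsn, Dsg1a and Calm4 lie below 0 at ZT8, Sbsn and Calm4 above 0 at ZT12, Lce1b below 0 at ZT4, and Tgm3 is at 1.21 at ZT16 and 0.46 on average.

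At ZT12 the direction was the opposite of that at ZT8 for Sbsn and Calm4, which were higher on the high fat diet, 2 of 9 genes where 18% of all genes passed and 13.6% were higher. A count of 2 of 9 is near the share of all genes. Sbsn read 11.43, 11.62, 11.60 and 11.61 on the high fat diet and 11.33, 11.22 and 11.23 on the control diet (0.30 ± 0.11, adjusted p = 0.0452). Its other probe sets gave 0.31 and 0.35 and did not pass (adjusted p = 0.0712 and 0.34), nor did the mean of its probe sets (0.32, adjusted p = 0.144). Calm4 read 10.24, 10.51, 10.14 and 10.22 on the high fat diet and 9.95, 9.85 and 9.63 on the control diet (0.47 ± 0.15, adjusted p = 0.0325). Krtdap read 10.07, 10.11, 10.04 and 10.30 on the high fat diet and 9.89, 9.64 and 9.55 on the control diet, and its difference of 0.44 ± 0.16 lay just outside (adjusted p = 0.0523). None of the 3 genes overlapped between the diets, nor did Tgm3, as for 20.6% of all genes with high fat arrays higher. The median of all genes was itself shifted at ZT12, by 0.05, and with the median of the tested genes subtracted from each array Sbsn (0.24, adjusted p = 0.114) and Calm4 (0.41, adjusted p = 0.0678) did not pass. Neither gene passed without control ZT12 replicate 2, control ZT12 replicate 3 or high fat ZT12 replicate 2, with 0.28 to 0.29 in Sbsn and 0.38 to 0.49 in Calm4. At the same time point 5 of 10 leukocyte genes were higher and 1 lower on the high fat diet, whose part in the result was not tested.

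Lce1b was lower on the high fat diet at ZT4, the 1 of 9 genes called there, where 0.386% of all genes were and 0.205% were lower. It read 5.84, 5.97, 6.07 and 5.64 on the high fat diet and 6.93, 6.31 and 6.48 on the control diet, with no overlap, as for 5.16% of all genes (-0.69 ± 0.15, 1.62-fold lower, adjusted p = 0.0423). Without control ZT4 replicate 1, the highest array, the difference was -0.52 (adjusted p = 0.314), and it did not pass either without control ZT4 replicate 2 or high fat ZT4 replicate 1, 2 or 4 (adjusted p = 0.069 to 0.116). At ZT0 no gene passed where 0.854% of all genes did, and at ZT20 no gene passed where 0.702% did (limma, with 0 and 2 genes at an unadjusted p under 0.05). The 2 at ZT20 were Tgm3 and Calm4, which averaged 9.93 on the high fat diet and 10.29 on the control diet (-0.37 ± 0.14, adjusted p = 0.208).

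The diet difference itself depended on time for 5 of 9 genes, where it did for 19.0% of all genes (limma F test). These were Calm4 (adjusted p = 0.00728), Tgm3 (0.0102), Sbsn (0.0197), Lce1b (0.0263) and Dsg1a (0.039). Without ZT12 only Tgm3 (0.017) and Lce1b (0.0355) remained, and without ZT8 Sbsn (0.108) and Dsg1a (0.284) did not pass while Krtdap did (0.027). Krt1, Krt10, Ivl and Krtdap did not pass with all arrays (0.219, 0.369, 0.894 and 0.105). The other probe sets of Sbsn gave 0.05 and 0.235, and the mean of its probe sets gave 0.0897. Dsg1a did not pass with array weights (0.0723) or with a replicate block (0.0548).

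Other genes of the differentiation program were tested in the same fits, where 8.34% of all genes passed at ZT8 (2.92% lower), 18% at ZT12 (13.6% higher) and 7.59% on average. At ZT8 the barrier lipid genes Abca12 (-1.70 ± 0.43), Alox12e (-1.14 ± 0.29) and Elovl4 (-0.85 ± 0.25) were lower on the high fat diet, 3 of 15, as were Calml3 (-1.73 ± 0.32), 1 of 7 calcium binding genes, the keratin gene Krt77 (-0.25 ± 0.08), 1 of 5, and Lce1h (-0.34 ± 0.10), 1 of 29 envelope precursors. Of 17 proteases and inhibitors 2 were higher, led by Ctsl (1.25 ± 0.27), and 2 lower, led by the kallikrein inhibitor gene Spink5 (-0.91 ± 0.29). Of 34 regulators 1 was higher and 5 were lower, with Grhl1 at -0.74 ± 0.17 and Notch3 at -0.61 ± 0.19. At ZT12 the loricrin gene Lor (0.79 ± 0.25) and the transglutaminase gene Tgm5 (0.73 ± 0.19) were among 4 envelope precursors above control values, beside 2 below, and 6 of 29 is near the share of all genes. Of the barrier lipid genes 3 were lower and 1 higher at that time, with Abca12 at -1.18 ± 0.33 and the glucosylceramide synthase gene Ugcg at -0.65 ± 0.13. S100a14 (0.66 ± 0.11) and S100a16 (0.30 ± 0.08) were higher, and 6 regulators were lower and 1 higher, with the AP-1 gene Fosl1 at -0.92 ± 0.27 and Ovol1 at -0.67 ± 0.19. The desmosome gene Dsp was lower by 0.15 ± 0.03.

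Averaged over the times, 1 of 5 keratins (Krt80, -0.11 ± 0.03), 1 of 29 envelope precursors (Sprr2a1, one of a family of close copies, -0.48 ± 0.14) and 0 of 10 junction and 0 of 17 protease genes passed by limma (3 and 4 at an unadjusted p under 0.05). Of 15 barrier lipid genes, the lipoxygenase gene Aloxe3 was higher by 0.22 ± 0.05, and Alox12e and Sdr9c7 were lower by 0.45 ± 0.09 and 0.27 ± 0.08. The alarmin gene S100a9 was higher by 0.12 ± 0.03. Of the regulators the transcription factor gene Maf, known for its part in human epidermal differentiation, was the 1 of 34 that passed, at 0.47 ± 0.05. Of all genes 7.59% passed on average, and the counts for envelope precursors, junction genes, proteases and regulators lie below that share. The median average difference was -0.06 for the 9 suprabasal genes and 0.02 for all genes. At ZT4 no gene of these lists passed, where 0.386% of all genes did. At ZT0, where 0.854% of all genes passed, the ceramide synthase gene Cers3 was higher by 1.01 ± 0.19. At ZT16, where 1.24% of all genes passed, Cers3 was higher by 0.68 ± 0.18 and the keratin gene Krt80, 1 of 5, was lower by 0.31 ± 0.07. Of the 3 stress keratins 0 passed in any of these diet comparisons (limma, with at most 1 at an unadjusted p under 0.05).

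The third question was whether the genes followed a daily cosine. Under high fat feeding a 24 h cosine passed for 3 of 9 genes, where 11.2% of all genes passed, and on the control diet for 3, where 6.66% did. High fat Krtdap had an amplitude, from mean to peak, of 0.38 ± 0.09 (SE) and peaked at ZT6.52 (adjusted p = 0.013), Sbsn one of 0.21 ± 0.06 with a peak at ZT5.53 (adjusted p = 0.0446) and Tgm3 one of 0.63 ± 0.13 with a peak at ZT15.8 (adjusted p = 0.00298). Control Krtdap had 0.47 ± 0.09 with a peak at ZT4.74 (adjusted p = 0.00312), Sbsn 0.31 ± 0.06 at ZT4.80 (adjusted p = 0.00378) and Krt1 0.16 ± 0.03 at ZT7.22 (adjusted p = 0.00716). Control Tgm3 had an amplitude of 0.22 ± 0.13 (adjusted p = 0.562).

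For no gene did the cosine differ between the diets, where it did for 3.58% of all genes (limma, with 0 of 9 at an unadjusted p under 0.05). For Tgm3 the test of this difference gave an adjusted p of 0.342. Without ZT8, Krtdap, Sbsn and Tgm3 passed on the high fat diet and Krtdap, Sbsn and Lce1b on the control diet, and the difference between diets passed for Krtdap (adjusted p = 0.0297). Without high fat ZT8 replicate 2 the high fat cosine passed for Tgm3 alone. A random block for each pair of diet and time allows for arrays of the same diet and time sharing their deviation. It does not model a deviation that both diets share at a time point. With this block 0 of 9 genes passed in either diet. Of all 17097 genes 66 passed on the high fat diet and 137 on the control diet, so that the count is near the background. The smallest adjusted p was then 0.131 for Tgm3 on the high fat diet and 0.109 for Krtdap on the control diet.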

How the data were processed

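Per the labels' protocols, RNA was amplified by WTA2 from 25 ng in 17 cycles and 8 µg of cDNA was hybridised to Affymetrix arrays. The deposited values are log2 values that the authors made by RMA, per the submitters' processing notes, whose version the sources do not give. They cover 45141 probe sets on 41 arrays, of which 28898 carry 1 gene symbol, 551 several and 15692 none. Array medians were 6.41 to 6.44. Arrays have no counting depth, how far signals lay above background is unknown, and precision is limited by how many arrays each group has.

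The probe set with the highest mean stood for a gene (17097 genes, no filter on low values). All genes were fitted in limma 3.58.1 (R 4.3.3) with 1 mean per diet and time point (29 residual degrees of freedom), or with a 24 h cosine per diet (35), and p-values were adjusted by the Benjamini-Hochberg method over all genes at 0.05. Figures used Python 3.11.15 and matplotlib 3.10.9, and the fits were tested on simulated data. All 9 genes were tested in every comparison. Those that passed in the main fits are named, and the values of the others are given in part. From other lists up to 4 genes with the greatest differences past the threshold could be named, and likeness was ranked by Pearson's r over 41 arrays, with predicted genes passed over. The 9 genes and the 8 lists of pathways and 11 of cell markers were chosen with earlier results of these data known. No replicate block was used, since the labels do not say that a number marks a shared mouse, day or batch. Over 198 same-numbered pairs the deviations had a median r of -0.03 (-0.362 to 0.307), and other pairs were not computed for comparison. With a block, Lce1b at ZT4 (limma, adjusted p = 0.0618), Calm4 at ZT8 (0.0648) and Sbsn at ZT12 (0.0597) did not pass between diets. Alternatives were other scalings, probe set rules, a filter on dim genes, array weights, blocks, and single arrays or time points left out.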

Additional observations from a re-analysis of the deposited data

Results flagged for a closer look

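Over the groups of 4 arrays, 63 sets of a gene in a group were examined, and 2 held an array that stood apart by Dixon's criterion, which is 3.17% where chance gives about 5%, or 1 in 20. Sbsn read 11.43 on high fat ZT12 replicate 1, the lowest of its group, with a gap to the next array of 0.878 of the range. Tgm3 read 10.33 on high fat ZT16 replicate 2, the highest of its group, with a gap of 0.948 of the range.

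The diet difference depended on time by limma's F test in 5 genes. The adjusted p was 0.00728 for Calm4, 0.0102 for Tgm3, 0.0197 for Sbsn, 0.0263 for Lce1b and 0.039 for Dsg1a. Sbsn and Dsg1a did not pass in several other settings, as given above. Calm4 ran from -0.64 at ZT8 to 0.47 at ZT12, and Tgm3 from 0.05 at ZT4 to 1.21 at ZT16.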

How the results depend on the processing

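Counts are of the 9 genes that passed. Diet at ZT4 gave 0 with dim genes left out (which removes Lce1b), with the replicate block, without ZT12 and with arrays of that time alone. Diet at ZT8 gave 1 with array weights and 0 with arrays of that time alone. Diet at ZT12 gave 0 with tested-gene medians subtracted and 1 with the replicate block. The diet average gave 2 with tested-gene medians subtracted, and diet by time 2 without ZT12. Without ZT8 the single times gave 6 (high fat) and 12 (control), fewer pairs being tested, and the cosine difference 1. With arrays of 1 diet alone, high fat gave 3 for time points, 6 for single times and 5 for the cosine. With a random block the cosine gave 0 in both diets. Leaving out single arrays gave 0 to 0 at ZT0 and ZT20, 0 to 1 at ZT4, 0 to 5 at ZT8, 0 to 3 at ZT12, 1 to 1 at ZT16, 1 to 2 for the average and 4 to 7 for diet by time. For high fat and control it gave 4 to 7 and 8 to 9 for time points, 7 to 18 and 16 to 23 for single times, and 1 to 4 and 2 to 5 for the cosine, and 0 to 0 for the cosine difference. High fat ZT8 replicate 2 gave the lowest high fat values for single times (7) and the cosine (1). The average reached 2, with Dsg1a, without control ZT8 replicate 1 or high fat ZT12 replicate 2, ZT16 replicate 3 or ZT8 replicate 2. ZT12 gave 1 without control or high fat ZT0 replicate 3 or high fat ZT12 replicate 1, 3 or 4, and the control cosine 5 without control ZT20 replicate 4 or high fat ZT8 replicate 2. A sign was called reversed only where the difference was at least 1 SE from 0 or passed in either fit. These were Sbsn on average (0.0353 without ZT8), Sbsn at ZT0 (0.0224 in another probe set) and Ivl at ZT20 (0.19 in another probe set). With arrays left out they were Krtdap at ZT8 by diet (-0.90 to 0.23), high fat Krt1 (-0.045 to 0.309) and Sbsn (-0.10 to 0.52) at ZT8, and control Lce1b at ZT8 (-0.45 to 0.12). The causes were not tested. Of 198 same-numbered pairs 38 had r over 0.1, and whether the numbers mark a shared batch was not tested.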
